A study of Mus musculus with 12 samples.

Results

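Antibody genes were followed in RNA from 12 mice, from cells that were sorted to be endothelial cells of the bone marrow, with 3 mice in each of 4 groups and 1 library from each mouse. The 10 genes described are 7 heavy chain constant genes (*Ighm*, *Ighd*, *Igha*, *Ighg1*, *Ighg2b*, *Ighg2c* and *Ighg3*), the kappa light chain constant gene *Igkc*, and the antibody assembly genes *Jchain* and *Mzb1*. They were picked by symbol from a table of read counts for 55421 genes, all 10 were found, and all 10 were among the 15999 genes that passed the filter on low counts. The control mice were naive C57BL/6J animals, with neither a sham operation nor a saline pump. The hypertension group was C57BL/6J mice under chronic angiotensin II treatment, and the MI group was C57BL/6J mice on day 2 after acute myocardial infarction by the labels, while the study's text gives a later day. The atherosclerosis group was the strain Apoe(tm1Unc), in which *Apoe* is knocked out and which the study's methods place on a western diet, so genotype and diet cannot be told apart. All mice were 20 weeks old, and the replicates carry the numbers 2, 3 and 4 in every group.

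A B cell first makes IgM and IgD from the same rearranged heavy chain, and class switching then replaces the constant part by one of the IgG subclasses, IgA or IgE. When the cell becomes a plasma cell it secretes antibody and fills with immunoglobulin mRNA, and bone marrow is a main home of long-lived plasma cells. The J chain, encoded by *Jchain*, joins IgM into pentamers and IgA into dimers, and MZB1, also called pERp1, is an endoplasmic reticulum protein that helps antibody assembly.

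The sort took TER-119- CD41- CD45- CD31hi SCA-1+ cells after depletion of lineage-positive cells, including B220-positive cells. Antibody mRNA was nevertheless among the counts: the 10 genes held between 0.607% and 2.18% of all counts of a library. The summed level of 16 endothelial genes was far lower, between 159 and 311 CPM, against 5923 to 23211 CPM for the sum of the 10 antibody genes. CPM are counts scaled to library size, here after the trimmed mean of M-values scaling (TMM) unless stated otherwise. *Cdh5*, which encodes VE-cadherin and marks endothelial cells, lay between 2 and 4.19 CPM, and all 16 endothelial genes had counts in every library. Libraries held 17007088 to 25136936 counts. *Apoe* stood at 717 to 894 CPM in the controls and at 7.28 to 14.8 CPM in the atherosclerosis libraries, the knockout group. MI replicate 2 stood apart from the other MI libraries in its antibody and B cell genes, and the main values after MI are given with and without it. In such bulk RNA, fewer antibody-making cells and less antibody mRNA per cell cannot be told apart.

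The heavy chain genes lie side by side on the minus strand of chromosome 12 in the mouse assembly GRCm38, from *Ighm* at chr12:113418558-113422730 to *Igha* at chr12:113254830-113260236. The IgG subclass genes are related in sequence, with *Ighg2b* and *Ighg2c* the closest to each other of the pairs compared, and the first 60 bases of their first constant exon are printed from the GENCODE M21 transcripts to make this visible. Capitals mark bases that differ from *Ighg2c*, all sequences run 5′ to 3′ on the coding strand, and all lie in coding exons.
Ighg2c (chr12:113288873-113288932): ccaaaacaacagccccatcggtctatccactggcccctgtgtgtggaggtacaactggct
Ighg2b (chr12:113307874-113307933): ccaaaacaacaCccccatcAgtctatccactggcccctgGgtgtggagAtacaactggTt
Ighg1 (chr12:113330464-113330523): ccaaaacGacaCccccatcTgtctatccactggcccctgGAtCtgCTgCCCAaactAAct
Ighg3 (chr12:113361173-113361232): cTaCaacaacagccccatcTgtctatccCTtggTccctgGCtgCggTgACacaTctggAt
*Ighg2b* matched *Ighg2c* at 55 of the 60 positions, while *Ighg1* and *Ighg3* each matched it at 46 and each other at 42. Further into the genes, *Ighg2b* (chr12:113306869-113306946) and *Ighg2c* (chr12:113287869-113287946) share an unbroken run of 78 bases, which is shown because a read that falls inside it cannot be given to either gene.
Shared by Ighg2b and Ighg2c: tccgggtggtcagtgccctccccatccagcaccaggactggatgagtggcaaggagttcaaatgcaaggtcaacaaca
Of all windows of 50 bases in the exons of a gene, 95.9% were unique to it for *Ighg2b*, 94.5% for *Ighg2c*, 98.4% for *Ighg3* and 99.6% for *Ighg1*, and 100% for *Ighm*, *Ighd*, *Igha* and *Igkc*. *Mzb1* was the exception with 46.5%, since 57.2% of its exon bases overlap SPATA24 on the same strand, and reads that overlap both genes are left out of this kind of count.

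Per kilobase of exon, *Igkc* had the highest level of the 10 genes, with a median over the 12 libraries of 7537 CPM per kb. *Ighm* followed with 1830, *Igha* with 439 and *Jchain* with 289 CPM per kb. The IgG subclasses lay lower, at 50.6 for *Ighg2c*, 41.5 for *Ighg2b*, 19.9 for *Ighg3* and 11.6 CPM per kb for *Ighg1*. The placing of *Ighg2c* above *Ighg2b* depends on annotated exon lengths of 1326 and 2678 bases. Their median CPM without division by length was 67 for *Ighg2c* and 111 for *Ighg2b*. *Ighd*, the isotype that naive B cells carry on their surface and plasma cells rarely make, stood at 8.8 CPM per kb. *Mzb1* came last with 1.35 CPM per kb and 10 to 46 counts per library, a level that the overlap with its neighbour lowers by an unknown amount. Neighbours in this order overlapped in their ranges over libraries, except *Ighd* and *Mzb1*.

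The spread over libraries differed between the genes. *Ighg3* ranged over 56.9-fold between its lowest and highest library, *Ighg1* over 11.6-fold and *Igha* over 11.5-fold, whereas *Ighd* ranged over only 1.96-fold. *Ighg2c* (7.38-fold), *Igkc* (7.25-fold), *Ighm* (6.21-fold), *Mzb1* (4.68-fold), *Jchain* (4.38-fold) and *Ighg2b* (4.3-fold) lay in between. The plot of levels by library shows that this spread was often as wide within a group as between groups.

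**Figure D1:**
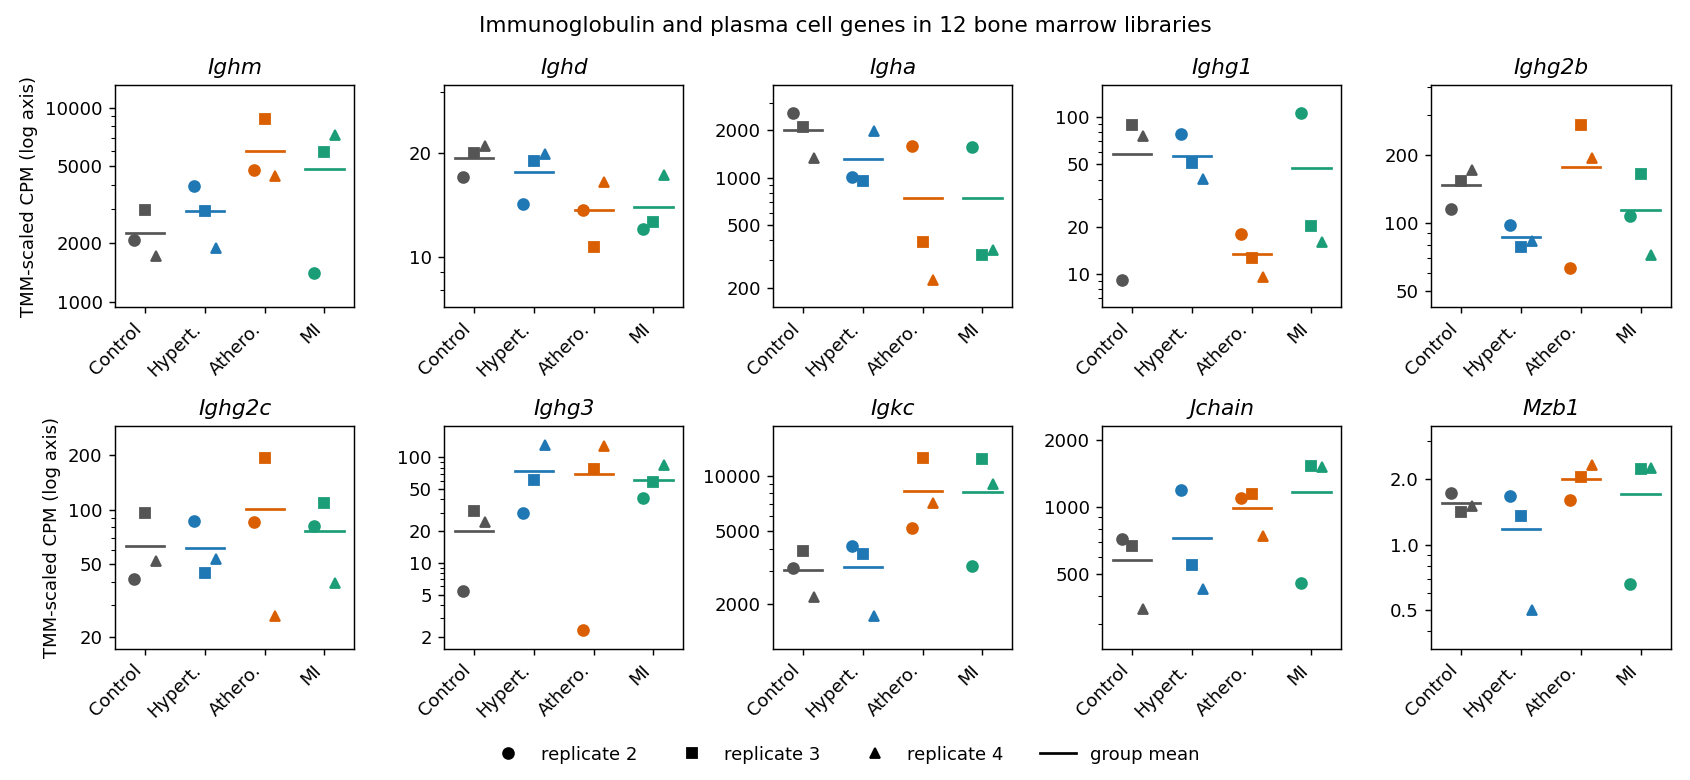
TMM-scaled CPM of each of the 10 genes on a log axis, by group, with 1 point for each library, marker shapes for the replicate number and a line at the group mean. *Ighm*, *Igkc* and *Jchain* lie above all controls in all 3 atherosclerosis libraries, and MI replicate 2 lies apart from the other MI libraries for *Ighm*, *Igha*, *Ighg1*, *Igkc*, *Jchain* and *Mzb1*.

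The first comparison set each disease group against the controls. No gene of the 10 passed an adjusted p of 0.05 when edgeR's quasi-likelihood test was adjusted over all 15999 genes by the Benjamini-Hochberg method, be it in hypertension, in atherosclerosis or after MI. Of all genes tested, 0% passed in hypertension, 0.144% in atherosclerosis (23 genes) and 0% after MI. The likelihood-ratio test of edgeR and DESeq2 also called 0 of the 10 genes in each of the 3 comparisons. At an unadjusted p under 0.05, 0 of the 10 genes passed in hypertension, beside 3.71% of all genes. In atherosclerosis 4 passed, beside 5.97% of all genes, and after MI 4 passed, beside 2.8% of all genes. The comparisons share the same 3 control libraries, so their values are given side by side and are not independent of each other.

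*Ighm*, the IgM heavy chain, stood at 2073, 2977 and 1723 CPM in the controls and at 3927, 2945 and 1888 CPM in hypertension. In atherosclerosis it reached 4752, 8723 and 4425 CPM, and after MI 1405, 5936 and 7203 CPM. All atherosclerosis libraries lay above all controls, while the MI libraries fell on both sides of them, with MI replicate 2 lowest of all 12. The log2 fold change was 1.40 in atherosclerosis (standard error 0.50; in edgeR's quasi-likelihood test the unadjusted p was 0.0142 and the adjusted p 0.683). After MI it was 1.10 (standard error 0.49, adjusted p = 1) and in hypertension 0.37 (standard error 0.49, adjusted p = 0.953). Without MI replicate 2, the MI value was 1.54 (adjusted p = 1).

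*Igkc*, the constant part of the kappa light chain that most mouse antibodies carry, gave values that ran beside those of *Ighm*. Its controls stood at 3116, 3871 and 2178 CPM and its hypertension libraries at 4149, 3719 and 1710 CPM. It reached 5165, 12391 and 7119 CPM in atherosclerosis and 3206, 12254 and 9034 CPM after MI. The atherosclerosis libraries again lay above all controls, and MI replicate 2 lay within the control range. The log2 fold change was 1.43 in atherosclerosis (standard error 0.48, unadjusted p = 0.0108, adjusted p = 0.633) and 1.42 after MI (standard error 0.48, unadjusted p = 0.0112, adjusted p = 1) in the quasi-likelihood test. In hypertension it was 0.06 (standard error 0.47, adjusted p = 0.991), and after MI without replicate 2 it was 1.80 (adjusted p = 1). The variable genes of the same chain are parts of the same mRNA, so their sum is no separate evidence. The sum over 100 *Igkv* genes was 820 ± 215 CPM in the controls (SD, n = 3), 912 ± 371 in hypertension, 2239 ± 741 in atherosclerosis and 2333 ± 1400 after MI. The MI libraries were at 803, 3549 and 2648 CPM, with replicate 2 within the control range of 616 to 1044 CPM.

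*Jchain* stood at 716, 671 and 349 CPM in the controls. It was 1192, 549 and 428 CPM in hypertension, 1095, 1141 and 739 CPM in atherosclerosis, and 459, 1530 and 1505 CPM after MI. The atherosclerosis libraries lay above all controls, with the lowest of them just over the highest control, and both other groups overlapped the controls. Log2 fold changes were 0.32 in hypertension (standard error 0.46), 0.78 in atherosclerosis (standard error 0.46) and 1.01 after MI (standard error 0.46), and the adjusted p was 0.955, 0.868 and 1. Without MI replicate 2 the MI value was 1.39 (adjusted p = 1). As a log2 ratio to all heavy chain counts per kb, in which all groups overlapped the controls, *Jchain* was -3.23 ± 0.29 in the controls (SD, n = 3), -3.05 ± 0.53 in hypertension, -3.17 ± 0.30 in atherosclerosis and -2.77 ± 0.27 after MI.

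*Igha*, the heavy chain of the antibody of mucosal surfaces, had its lower values in the disease groups. Controls held 2588, 2109 and 1326 CPM, and hypertension libraries 1015, 948 and 1978 CPM. In atherosclerosis it was 1600, 389 and 225 CPM, and after MI 1560, 321 and 348 CPM. Replicates 3 and 4 of both groups were below every control, while replicate 2 of each lay within the control range. The log2 fold change was -1.44 in atherosclerosis (standard error 0.71, adjusted p = 0.849), -1.43 after MI (standard error 0.71, adjusted p = 1) and -0.61 in hypertension (standard error 0.70, adjusted p = 0.951). Without atherosclerosis replicate 2 it was -2.70 (adjusted p = 0.227), and without MI replicate 2 it was -2.59 (adjusted p = 1). The 4 libraries with the lowest *Igha* were also those with the highest *Igkc*, a match noticed after the values were seen.

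Isotype shares were then computed from counts per kb over the 7 heavy chain genes and *Ighe*, and are given as a description with no test. *Ighm* made up 50.9%, 61.8% and 58.4% of heavy chain in the controls, and *Igha* 44.9%, 30.9% and 31.8%. In atherosclerosis the *Ighm* share was 78.2%, 91.4% and 90.7%, and the *Igha* share 18.6%, 2.88% and 3.26%. All 3 atherosclerosis libraries thus held a higher IgM share and a lower IgA share than every control. After MI the *Ighm* share was 49.8%, 91.3% and 94.2%, with replicate 2 like the controls, and in hypertension it was 79.7%, 76.8% and 52.9%, with replicate 4 like the controls. The switched share, which sums IgG, IgA and IgE, was 42.4% ± 5.59 in the controls (SD, n = 3), 29.8% ± 14.6 in hypertension, 13% ± 7.45 in atherosclerosis and 21.3% ± 24.7 after MI. The mean switched share after MI was 7.08% without MI replicate 2, and the mean *Ighm* share 92.7% (n = 2). Most of the difference lay in *Igha*, since the IgG genes together held 6.57% ± 2.7 in the controls, 6.04% ± 1.14 in hypertension, 4.74% ± 1.53 in atherosclerosis and 6.01% ± 4.18 after MI, or 3.72% without MI replicate 2.

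**Figure D2:**
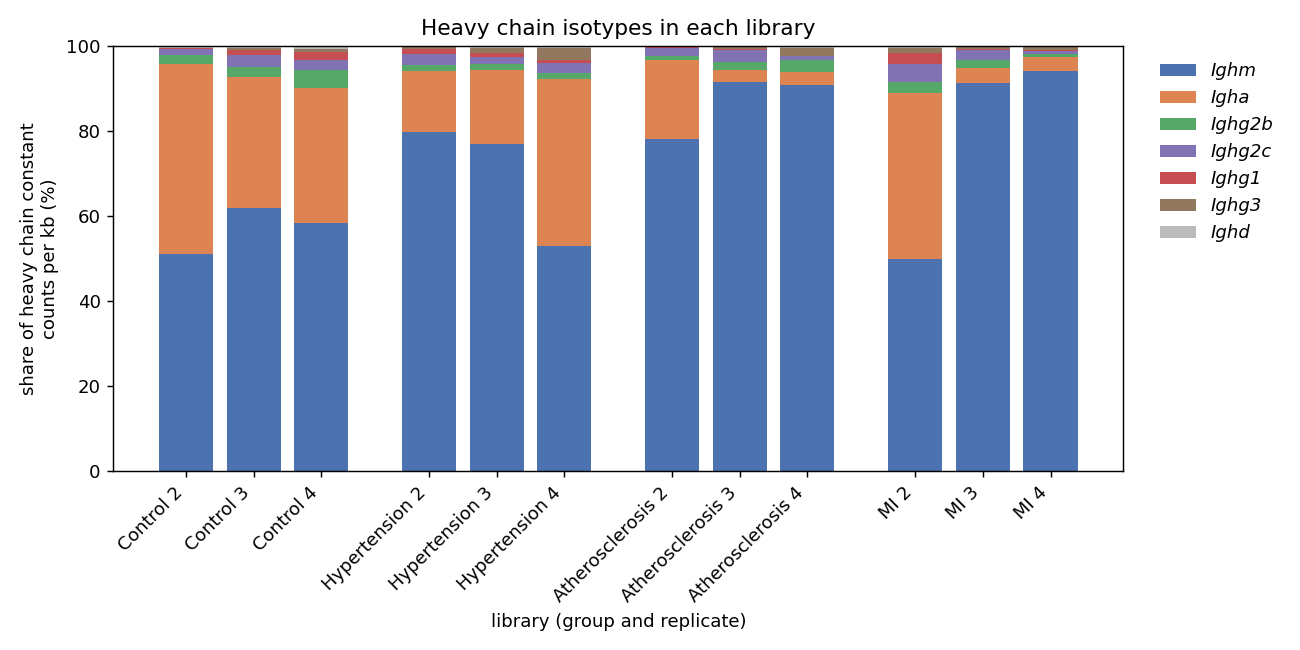
Stacked bars of the share of heavy chain constant counts per kb (%) held by each isotype gene, 1 bar for each library; *Ighe*, at most 0.0559%, is not drawn. The *Igha* part shrinks to 2.88% to 3.49% in atherosclerosis replicates 3 and 4 and in MI replicates 3 and 4, and the *Ighm* part fills most of the rest.

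Among the IgG subclasses, *Ighg1*, the subclass linked to type 2 help, was the one with the largest negative fold change in atherosclerosis. It stood at 9.19, 89.6 and 75.4 CPM in the controls, 78.2, 51.3 and 40.3 CPM in hypertension, 18.1, 12.7 and 9.52 CPM in atherosclerosis, and 107, 20.1 and 16.1 CPM after MI. Control replicate 2 was lower than all atherosclerosis libraries, so the groups overlapped. The log2 fold change was -2.11 in atherosclerosis (standard error 0.77, unadjusted p = 0.0166, adjusted p = 0.711), -0.04 in hypertension (standard error 0.73, adjusted p = 0.996) and -0.29 after MI (standard error 0.73, adjusted p = 1), all by the quasi-likelihood test. When MI replicate 2, the highest MI library, was left out, the MI value was -1.69 (standard error 0.68, adjusted p = 1).

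*Ighg3*, the subclass made early against carbohydrate antigens, had the widest spread. Its controls stood at 5.44, 30.8 and 24.3 CPM. It was 29.5, 61.5 and 132 CPM in hypertension, 2.31, 77.2 and 128 CPM in atherosclerosis, and 40.9, 59 and 85.4 CPM after MI. Only the MI libraries all lay above the controls. Log2 fold changes were 1.88 in hypertension (standard error 0.95, adjusted p = 0.951), 1.77 in atherosclerosis (standard error 0.94, adjusted p = 0.86) and 1.61 after MI (standard error 0.94, adjusted p = 1). With 1 library left out at a time these values ran from 1.18 (without hypertension replicate 4) to 2.30 (without control replicate 3), from 0.98 (without atherosclerosis replicate 4) to 2.36 (without atherosclerosis replicate 2) and from 1.16 (without control replicate 2) to 2.04 (without control replicate 3).

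*Ighg2b* stood at 116, 153 and 172 CPM in the controls and at 97.6, 78.7 and 82.9 CPM in hypertension, all below the controls. It was 63.5, 273 and 194 CPM in atherosclerosis and 107, 165 and 71.9 CPM after MI. The log2 fold change in hypertension was -0.77 (standard error 0.41, adjusted p = 0.951), and it was 0.27 in atherosclerosis (standard error 0.41) and -0.36 after MI (standard error 0.41). *Ighg2c*, which takes the place of IgG2a in the C57BL/6 strain, stood at 41.7, 95.5 and 51.9 CPM in the controls. It ranged from 44.6 to 86.8 CPM in hypertension, from 25.9 to 191 CPM in atherosclerosis and from 39.3 to 109 CPM after MI, and every group overlapped the controls. As a part of all IgG, *Ighg2b* and *Ighg2c* were the leading subclasses in the controls with 43.8% ± 10.7 and 35.8% ± 7.25 (SD, n = 3). The *Ighg3* part was 5.49% ± 2.42 in the controls, 22.9% ± 14.8 in hypertension, 15.5% ± 17.4 in atherosclerosis and 19.6% ± 13.6 after MI.

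*Ighd* stood at 17, 20 and 21 CPM in the controls, 14.2, 18.9 and 19.8 CPM in hypertension, 13.7, 10.7 and 16.5 CPM in atherosclerosis, and 12, 12.6 and 17.3 CPM after MI. The atherosclerosis libraries were all below the controls, the highest of them by a small margin. Log2 fold changes were -0.13 (standard error 0.21), -0.50 (standard error 0.21, adjusted p = 0.792) and -0.47 (standard error 0.21, adjusted p = 1) for hypertension, atherosclerosis and MI. *Mzb1* lay between 0.501 and 2.34 CPM, with log2 fold changes of -0.39, 0.36 and 0.14 in the same order (standard errors 0.47, 0.46 and 0.47). Of the isotypes that are not among the 10 genes, *Ighe*, the IgE heavy chain, had 0 counts in all control and atherosclerosis libraries. In these libraries 3 counts, the limit that a count of 0 allows, correspond to 0.119 to 0.166 CPM of the plain library total, without TMM scaling. *Ighe* had 5, 15 and 0 counts in hypertension and 24, 1 and 1 after MI.

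**Figure D3:**
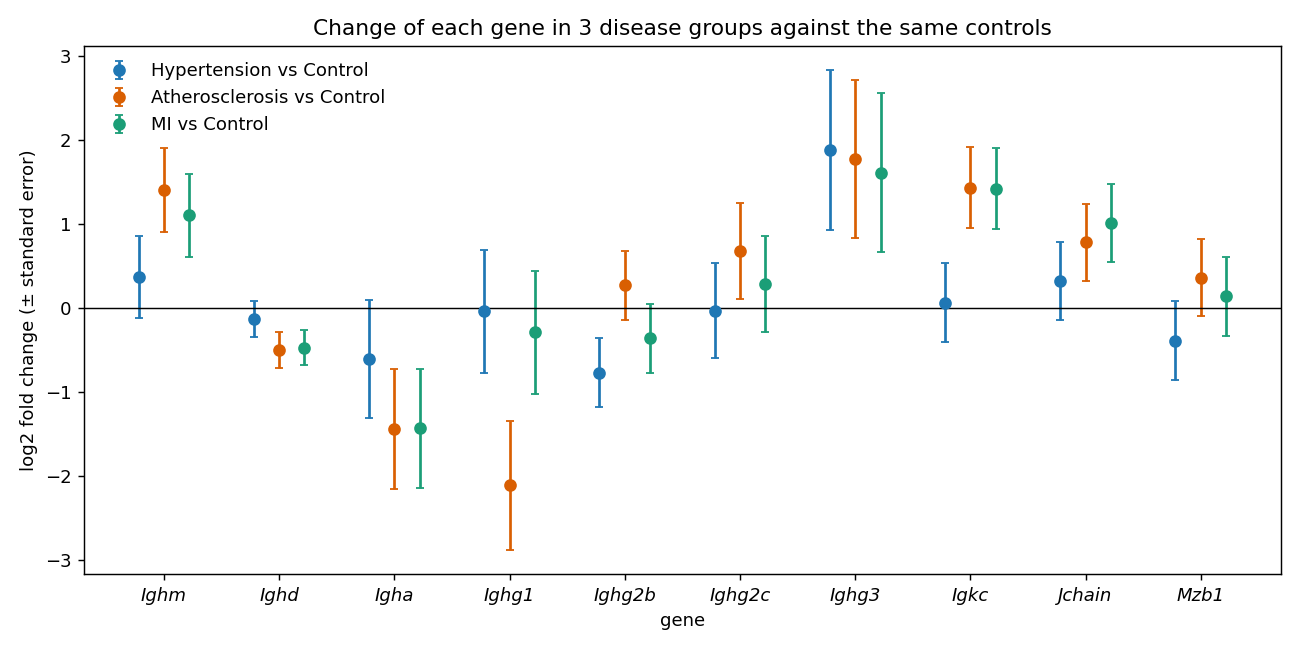
Log2 fold change of each of the 10 genes in hypertension, atherosclerosis and MI against the same 3 controls, with bars of 1 standard error from edgeR's quasi-likelihood fit. *Ighm* and *Igkc* lie at 1.10 to 1.43 in atherosclerosis and MI and near 0 to 0.37 in hypertension, *Igha* lies below 0 in all 3, and no gene passed the adjusted threshold.

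Counted by overlap, 1 of the 10 genes was outside the control range in every hypertension library (*Ighg2b*, below), beside 16.8% of all genes. In atherosclerosis 4 were outside (*Ighm*, *Igkc* and *Jchain* above, *Ighd* below), beside 9.51% of all genes, and after MI 1 was outside (*Ighg3*, above), beside 8.86%. Without MI replicate 2, an alternative chosen after the data were seen, 6 were outside after MI (*Ighm*, *Igkc*, *Jchain*, *Ighg3* and *Mzb1* above, *Igha* below), beside 19.9% of all genes. The hypertension count and the MI count over all 3 libraries are near the share over all genes. *Ighm*, *Igkc* and *Jchain* moved together over the 12 libraries, with Pearson's r of log2 CPM from 0.843 to 0.909. Counts of these genes, here and at an unadjusted p, are therefore not counts of independent genes.

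Each disease group was then set against the other disease groups, and again 0 of the 10 genes passed the adjusted threshold. Over all genes 0% passed for MI against hypertension, 0.269% for MI against atherosclerosis and 0.0625% for atherosclerosis against hypertension, and the likelihood-ratio test and DESeq2 called 0 of the 10 in each. At an unadjusted p under 0.05, 1 of the 10 passed for MI against hypertension (*Igkc*), beside 8.41% of all genes, and 1 for MI against atherosclerosis (*Ighg1*), beside 12.7%. For atherosclerosis against hypertension 3 passed (*Ighg1*, *Ighg2b* and *Igkc*), beside 5.94%. Set against hypertension, *Igkc* had a log2 difference of 1.35 after MI (standard error 0.48, adjusted p = 0.556) and of 1.37 in atherosclerosis (standard error 0.48, adjusted p = 0.645, quasi-likelihood test). Between MI and atherosclerosis *Igkc* differed by -0.01 (standard error 0.47) and *Igha* by 0.01 (standard error 0.70), and these standard errors leave room for differences in either direction.

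The kappa share of light chain was higher in atherosclerosis than in the controls, given as a description. *Igkc* held 80% ± 8.22 of light chain constant counts per kb in the controls (SD, n = 3), 82.9% ± 4.39 in hypertension, 93.6% ± 2.4 in atherosclerosis and 90.7% ± 5.67 after MI. The single libraries were at 70.6%, 84.8% and 84.7% in the controls and at 91.1%, 95.9% and 93.7% in atherosclerosis, so these groups did not overlap. The mean kappa share after MI was 94% without MI replicate 2 (n = 2). *Iglc1*, the main lambda gene, was 473 ± 224 CPM in the controls and 252 ± 34.4 in atherosclerosis, which is -0.91 on the log2 scale (standard error 0.36, adjusted p = 0.76). *Iglc2* and *Iglc3* had fold changes of -0.37 and 0.02 on the log2 scale there (standard errors 0.68 and 0.32), and *Iglc4* had at most 7 counts in a library.

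Genes of plasma cells and of their B cell ancestors were set beside the antibody genes, from lists chosen with earlier results of these data known. Of 17 plasma cell genes, 0 passed the adjusted test in any comparison with the controls, and 10, 13 and 12 had a log2 fold change above 0 in hypertension, atherosclerosis and MI. The medians were 0.07, 0.21 and 0.23, beside -0.01, 0.01 and 0.00 over all genes, of which 48.1%, 51.9% and 50% were above 0. At an unadjusted p under 0.05, 3 of the 17 passed in atherosclerosis, beside 5.97% of all genes. In hypertension and after MI 0 passed, beside 3.71% and 2.8% of all genes. Without MI replicate 2, 3 of the 17 passed that threshold after MI, beside 1.74% of all genes in that fit, and the median was 0.26. *Derl3*, an endoplasmic reticulum gene of secretory cells, was 3.34 ± 0.68 CPM in the controls (SD, n = 3), 6.25 ± 0.168 in atherosclerosis and 5.97 ± 3.61 after MI, with log2 fold changes of 0.91 (standard error 0.41, adjusted p = 0.831) and 0.84 (standard error 0.41, adjusted p = 1). Its MI libraries had a lowest value of 1.88, a median of 7.36 and a highest value of 8.68 CPM, and without MI replicate 2 the MI value was 1.26 on the log2 scale, with a standard error of 0.25 (adjusted p = 1). *Tnfrsf17*, the survival receptor BCMA, had log2 fold changes of 0.71 and 0.75 there (standard errors 0.51 and 0.51), at 0.388 to 1.94 CPM. Among the regulators of the plasma cell program, *Prdm1* (Blimp-1) had log2 fold changes of 0.60 and 0.33 (standard errors 0.43 and 0.43), and *Xbp1* of 0.07 and 0.14 (standard errors 0.17 and 0.17). *Irf4*, shared with other lymphocytes, had 0.51 and -0.60 (standard errors 0.30 and 0.30), and *Sdc1*, which encodes the plasma cell surface marker CD138, had 0.75 and 0.20 (standard errors 0.37 and 0.37). The B cell coactivator *Pou2af1* had 0.12 and -0.45 (standard errors 0.24 and 0.24). In hypertension these 7 genes had log2 fold changes between -0.11 and 0.32. Of 19 folding and secretion genes 0 passed, and 10, 13 and 10 were above 0. At an unadjusted p under 0.05, 2 of the 19 passed in atherosclerosis and 0 in hypertension and after MI. The shares over all genes were 5.97%, 3.71% and 2.8% in the same order. The median log2 fold change was 0.01, 0.13 and 0.04 in hypertension, atherosclerosis and MI, with *Hspa5* (BiP) at 0.14, 0.10 and -0.20 (standard error 0.28 each).

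B cell genes had log2 fold changes below 0 after MI, where *Igkc*, *Ighm* and *Jchain* were high in 2 of 3 libraries. All 13 B cell genes had a log2 fold change below 0 after MI, with a median of -0.66 against 0.00 over all genes. Of them, 8 were at an unadjusted p under 0.05 (beside 2.8% of all genes) and 0 at the adjusted threshold of the quasi-likelihood test. Libraries of some of these genes overlapped the controls, such as *Cd79a*, at 36.1 to 77.8 CPM after MI and 75 to 118 CPM in the controls. *Ms4a1*, the B cell surface protein CD20, and *Cd79a*, a chain of the B cell receptor, had log2 fold changes of -0.99 (standard error 0.34) and -0.65 (standard error 0.26) after MI. Of the precursor genes 9 of 9 had a log2 fold change below 0, with a median of -0.48. At an unadjusted p under 0.05 were 5 of the 9, beside 2.8% of all genes. *Vpreb1* and *Igll1* of the surrogate light chain were at -0.99 and -1.10 (standard errors 0.40 and 0.41). Without MI replicate 2, 13 of 13 B cell genes and 8 of 9 precursor genes had a log2 fold change below 0. The medians were -0.41 and -0.59, with 0 calls. In that fit 5 of 13 and 2 of 9 were at an unadjusted p under 0.05, beside 1.74% of all genes. In hypertension 8 of the 13 B cell genes had a log2 fold change below 0, with a median of -0.07. In atherosclerosis 10 did, with a median of -0.16. At an unadjusted p under 0.05, 0 of the 13 passed in hypertension (beside 3.71% of all genes) and 1 in atherosclerosis (beside 5.97%). *Ms4a1* had log2 fold changes of 0.12 in atherosclerosis and 0.00 in hypertension (standard error 0.34 each). The summed level of the 13 B cell genes was 672 to 845 CPM in the controls, 677 to 1052 in hypertension, 670 to 1310 in atherosclerosis and 392 to 632 after MI, with MI replicate 2 lowest. The part of B cell numbers or levels in the antibody gene values was not tested.

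**Figure D4:**
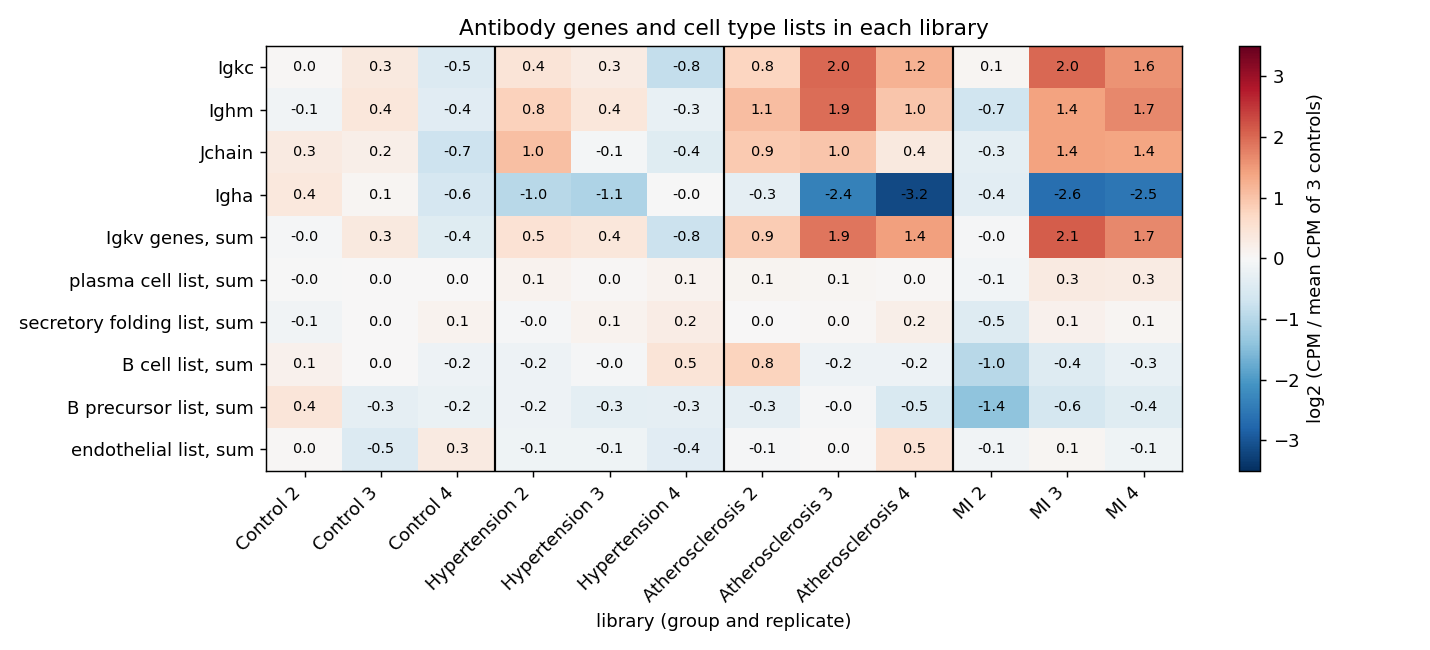
Log2 ratio of CPM to the mean of the 3 controls, coloured from blue (lower) to red (higher), for 4 antibody genes, the summed *Igkv* genes and 5 summed gene lists in each library. MI replicates 3 and 4 combine *Igkc* ratios of 2.00 and 1.56 with B cell list ratios of -0.44 and -0.27, and the endothelial list stays between -0.47 and 0.50 in all libraries.

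By Pearson's r of log2 CPM over the 12 libraries, given as a description over libraries that share groups and preparation, the genes most like *Jchain* outside the immunoglobulin genes were *Derl3* (r = 0.864), 9530085L11Rik (0.864), *Tnfrsf17* (0.863), *Gabra4* (0.855) and Gm8818 (0.834). For *Ighm* they were *Derl3* (0.933), *Jchain* (0.881), *Tnfrsf4* (0.849), *Adgrl2* (0.848) and *Ifi35* (0.847). For *Igkc* they were *Gabra4* (0.888), Gm37125 (0.876), *Jchain* (0.843), Gm42967 (0.839) and Gm20768 (0.837). *Derl3* thus stood near the top for both IgM and the J chain. *Gabra4* lay at or below 0.635 CPM in every library and *Tnfrsf17* at 0.388 to 1.94 CPM, levels of few counts.

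Of genes that feed, hold or bind antibody and its makers, *Cd5l*, a macrophage protein that travels bound to IgM, passed the test in atherosclerosis. It was 11.7 ± 3.72 CPM in the controls (SD, n = 3), 19 ± 5.09 in hypertension, 54.8 ± 14.8 in atherosclerosis and 19.9 ± 7.35 after MI. It rose in atherosclerosis by 2.22 on the log2 scale (standard error 0.32), higher in 3 of 3 libraries, and the adjusted p was 0.0191 in the quasi-likelihood test of edgeR. The call was lost without control replicate 2 (adjusted p = 0.129), without control replicate 3 (0.15) and without atherosclerosis replicate 3 (0.0671), with log2 fold changes of 2.20, 2.01 and 1.98. *Fcer1a*, a chain of the high-affinity IgE receptor, was lower after MI than in atherosclerosis by a log2 difference of -1.44 (standard error 0.25, adjusted p = 0.0378), at 11.1 ± 3.36 against 30.1 ± 8.42 CPM (SD, n = 3). In leave-one-out fits that call was lost without MI replicate 2 (adjusted p = 0.133), MI replicate 4 (0.127), atherosclerosis replicate 3 (0.074) or atherosclerosis replicate 4 (0.0589). *Fcgrt*, the neonatal Fc receptor that spares IgG from breakdown, had log2 fold changes of 0.03, 0.13 and 0.04 in hypertension, atherosclerosis and MI (standard error 0.20 each), and *Fcmr*, the IgM Fc receptor, of 0.16, -0.13 and -0.51 (standard error 0.25 each). *Pigr*, which carries IgA and IgM across epithelia, was at 0.3 CPM or less and was not tested.

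Plasma cell survival signals were 11 genes, of which 10 were tested and 0 passed the adjusted threshold in any comparison with the controls. At an unadjusted p under 0.05 in the quasi-likelihood test, 1 of the 10 passed in hypertension, beside 3.71% of all genes. In atherosclerosis 2 passed, beside 5.97%, and after MI 0 passed, beside 2.8%. *Il6*, a growth factor of plasma cells, had the largest difference of those named, 1.87 ± 0.179 CPM in the controls against 5.77 ± 0.0885 in atherosclerosis (SD, n = 3). The log2 difference was 1.63 and the adjusted p 0.0973 by the quasi-likelihood test. *Cxcl12*, which holds plasma cells in the marrow, had log2 fold changes of -0.24, -0.25 and -0.14 in hypertension, atherosclerosis and MI (standard error 0.43 each). *Tnfsf13* (APRIL) had -0.43, -0.39 and 0.18, and *Tnfsf13b* (BAFF) had -0.13, -0.39 and -0.14, with adjusted p between 0.892 and 1.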

How the data were processed

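RNA of sorted bone marrow cells from 12 mice was analysed, 3 mice in each of 4 groups taken from the sample titles. The deposited values are raw counts of reads per Ensembl gene. The authors made them from poly(A)-selected, strand-directional, single-end libraries with STAR 2.7.3a on GRCm38 and its GeneCounts option, and the strand column used is not given in the sources used here. Reads that map to several places or overlap several genes are not counted that way, which lowers the counts of near-identical genes. Symbols and coordinates came from GENCODE M21, in which 55240 of the 55421 genes were found, and levels per kb used merged exon lengths from it. edgeR 4.0.16 in R 4.3.3 was used with filterByExpr (15999 genes), TMM scaling, 1 fit over the 4 groups and glmQLFTest for 6 contrasts, and p-values were adjusted over all 15999 genes by the Benjamini-Hochberg method with a threshold of 0.05. Standard errors were obtained as the size of the log2 fold change over the root of its F statistic. The pipeline was tested on simulated counts. 1 further gene that the rule below names is counted in its list and not reported here by name.

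The 10 genes and the gene lists were chosen with earlier results of these data known. Named beside them were the other light chain and IgE genes, fixed plasma cell, B cell, survival and receptor genes, every listed gene that passed a contrast, *Apoe*, and the 5 genes most correlated with *Jchain*, *Igkc* and *Ighm*. Exact permutation tests planned for the isotype share, kappa share, *Jchain* ratio and sum are not printed, since they score genes chosen this way, and 3 against 3 libraries cannot go below p = 0.1. Alternatives were the likelihood-ratio test that the study names, DESeq2 1.42.0, RLE scaling, immunoglobulin genes left out of library totals, no low-count filter, a filter of 10 counts in each library, fits of only 2 groups, a replicate block, each library left out in turn, and raw counts or plain library totals for shares and sums.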

Additional observations from a re-analysis of the deposited data

How the results depend on the processing

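Without the low-count filter, the quasi-likelihood test called, against the controls, 2 of the 10 genes for hypertension, 6 for atherosclerosis and 5 for MI. It called 2 for MI against hypertension, 1 for MI against atherosclerosis and 5 for atherosclerosis against hypertension. Of all 36003 genes in that fit, it called 170, 432, 130, 422, 790 and 235 in the same order. In that fit the prior degrees of freedom were infinite, against 5.08 with the filter, so a gene's own spread between libraries did not enter its test: the quasi-dispersion of *Ighg1* was 0.66 in place of 8.88. All other alternatives called 0 of the 10 genes in the 6 comparisons, the replicate block included.

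Of 420 log2 fold changes of the 10 genes against the controls under the alternatives, 21 changed sign. With the replicate block, *Ighg2c* in hypertension went to 0.09, and the block changed the sign of no other of these values. It ended the call of *Cd5l* (adjusted p = 0.0546) and lowered the calls over all genes in atherosclerosis from 23 to 7 and for MI against atherosclerosis from 43 to 22. Deviations of libraries with the same number, each disease group against the controls, correlated at -0.17 to 0.29 over the tested genes. The labels do not say what a shared number stands for, and these correlations cannot decide it. Leaving out 1 library at a time moved the log2 fold change in hypertension between -0.22 and 0.00 for *Ighd*, -0.54 and 0.41 for *Ighg1*, -0.36 and 0.39 for *Ighg2c*, -0.17 and 0.37 for *Igkc*, and -0.24 and 0.60 for *Jchain*. In atherosclerosis it moved between -0.19 and 0.68 for *Ighg2b* and -0.18 and 1.14 for *Ighg2c*. After MI it moved between -1.69 and 0.16 for *Ighg1*, -0.07 and 0.70 for *Ighg2c*, and -0.10 and 0.53 for *Mzb1*.

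Differences from the controls in the switched share, the kappa share, the *Jchain* ratio and the sum moved by less than 1 SD between replicates under raw counts or plain totals, while levels moved: the switched share of raw counts in the controls was 50.3%. The difference in the switched share after MI ran from -35.4 percentage points without MI replicate 2 to -13.3 without MI replicate 4, and the log2 difference in the sum from 0.50 without MI replicate 3 to 1.27 without MI replicate 2. Intervals are not given for levels, and depth limits *Ighe*, *Iglc4* and *Mzb1*, which have few counts.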

Other observations

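The variable genes of the heavy chain were unevenly used in single libraries. The highest of 113 *Ighv* genes held 15.8%, 20.7% and 18.1% of all *Ighv* counts in the controls and 33.3%, 24.3% and 44.3% in hypertension. It held 40.1%, 59% and 11.3% in atherosclerosis and 6.98%, 17.1% and 62.7% after MI. The leading gene was *Ighv4-1* in 5 libraries, with 59% in atherosclerosis replicate 3, and *Ighv6-3* led with 62.7% in MI replicate 4. Among 100 *Igkv* genes the highest held between 7.68% and 25.9%, lowest in MI replicate 2. Variable genes form families of near copies, so the share of a single gene is uncertain, and no test was made.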
